A study of Sus scrofa with 3 samples.

Results

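Oxidative phosphorylation (OXPHOS) subunits are the nuclear-encoded proteins of the 5 complexes of the mitochondrial inner membrane that oxidise NADH and succinate and make ATP. They were taken as the genes whose array name is that of an NDUFA, NDUFB, NDUFC, NDUFS or NDUFV subunit, SDHA to SDHD, UQCR, CYC1, COX4 to COX8 or ATP5. This rule found 26 genes among 4611 named genes. Counted by name, 5 were in complex I, 3 in complex II, 2 in complex III, 7 in complex IV and 9 in complex V. They were covered by 116 probes, and 25 of the 26 were well above background on all 3 arrays. COX8H, named on the array as a subunit of cytochrome c oxidase, was not well above background on any.

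The RNA came from PIE cells, a line of non-transformed intestinal cells isolated from the gut epithelium of a newborn pig before its first milk. After 3 days of culture the cells received control medium (the ETEC group), Lactobacillus jensenii TL2937 (TL2937+ETEC) or Lactobacillus plantarum TL2766 (TL2766+ETEC) for 48 h and were washed. All 3 groups were then exposed for 12 h to ETEC PAMPs, microbial molecules of enterotoxigenic Escherichia coli that cells sense through innate receptors, so what the lactobacilli did without the PAMPs cannot be told apart from what they did to the response. Each group was 1 culture on 1 array, the unchallenged cells of the design were not analysed here, and no p-value is given for any value below.

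Complex I, the NADH dehydrogenase, and complex II, the succinate dehydrogenase, pass electrons to ubiquinone. Complex III passes them to cytochrome c and complex IV to oxygen, and complexes I, III and IV pump protons that drive complex V, the ATP synthase. All of complex II and most subunits of the other complexes are nuclear genes, whereas a few core subunits of complexes I, III, IV and V are transcribed inside the organelle from mitochondrial DNA. Intestinal epithelial cells use this machinery to fuel absorption and renewal.

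Levels are log2 processed intensities minus the 75th percentile of the same array, so that 0 is the 75th percentile itself, and a difference is 1 array's level minus another's. Each gene is represented by its brightest probe. Genes are termed higher or lower, or called, from a 1.2-fold difference (0.26 on the log2 scale), provided that both arrays of the comparison held them well above background. The 75th percentiles were 459, 503 and 481 for ETEC, TL2937+ETEC and TL2766+ETEC, and 60.9% to 62.5% of spots were well above background. Repeated spots (25 probes at 5 positions) gave log2 differences with a median standard deviation of 0.11 in the TL2937 comparison with ETEC, 0.079 in that of TL2766 and 0.087 from one lactobacillus array to the other. The highest standard deviation of a single probe was 0.39, 0.70 and 0.52 in these comparisons. This spread is between spots of 1 hybridisation and holds no variation between cultures. The labelled cell type was set against its markers. EPCAM, with 18 probes, KRT18 and CLDN4 were not well above background on any array. KRT8, CLDN3 and CLDN7 were detected at levels between -5.11 and -4.33, CDH1 was detected on 2 arrays, and OCLN lay at 1.25, 0.94 and 1.01. All 6 endothelial markers on the array were detected on at least 2 arrays, among them PECAM1 (7.49, 7.45 and 7.47) and CDH5 (6.97, 6.88 and 6.86), and VWF on 2. TEK (1.48, 2.33 and 2.19) and KDR (0.15, 0.73 and 0.65), endothelial receptors, were called higher on both lactobacillus arrays. Their differences were 0.85 and 0.71 for TEK and 0.58 and 0.50 for KDR. Over all named genes 7.41% and 8.43% were called higher. The rest of the list did not share the rise. PECAM1 differed by -0.045 and -0.022, CDH5 by -0.094 and -0.11, and CLDN5 by -0.091 and 0.0995. VWF gave -0.55 and -0.72 but was detected on only 2 arrays. Of 15 listed epithelial markers only 8 were on the array, without KRT7, KRT19, KRT20, VIL1, TJP1, CDX1 and CDX2. The log2 of the summed levels was 1.37, 1.09 and 1.15 for these 8 and 8.39, 8.34 and 8.36 for the endothelial list. Such sums are over different genes and probes, so sums of different lists are not to be compared with each other. For 7 enterocyte markers the log2 sum was 6.04, 5.86 and 5.83, and APOA1 (6.03, 5.85 and 5.82) made up nearly all of it. APOA4, SLC5A1 and MTTP were detected on all 3 arrays at levels between -4.37 and -1.91. ANPEP was detected on 2 arrays, and FABP1 and FABP2 were not detected. For 5 leukocyte markers, of which PTPRC was not detected, the log2 sum was 0.48, 0.67 and 0.72. The part of these markers in the results below was not tested, and fewer cells of a type cannot be told apart from less RNA per cell.

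The nuclear-encoded subunits held nearly the same level on all 3 arrays. In TL2937+ETEC against ETEC, 0 of the 25 measured genes were called higher and 0 lower, where 7.41% of all named genes were called higher and 13% lower. Their median difference was -0.025, with a standard deviation over genes of 0.088 and a range from -0.24 to 0.12. In TL2766+ETEC against ETEC, 0 were called higher and 1, COX7A1, lower, where 8.43% of all named genes were higher and 8.99% lower. The median was 0.0017, the standard deviation 0.090 and the range -0.30 to 0.14. Each lactobacillus array was set against the same ETEC array, so the comparisons are not independent. The genes are not replicates of a condition, and these standard deviations describe how they vary among themselves.

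Over all named genes the median difference was -0.043 with a standard deviation of 0.25 in the TL2937 comparison, and -0.0046 with 0.24 in the TL2766 comparison. The subunits are bright genes, and 22 of the 25 had a mean level of at least 4. In the TL2937 comparison the median size of a difference fell from 0.28 among named genes with levels under -4 to 0.097 among those from 2 to 4. It was 0.12 among those at 6 or more, where 17 of the 25 subunits lay. Among the 713 and 712 named genes with a mean level of at least 4, 3.37% were called higher and 11.2% lower in TL2937+ETEC against ETEC, and 4.92% and 4.07% in TL2766+ETEC against ETEC. The median size of a difference, whatever its sign, was 0.070 and 0.058 over the subunits in these comparisons, beside 0.11 and 0.083 over the named genes with a mean level of at least 4. At 2-fold, 0.292% of all named genes were higher and 0.175% lower with TL2937, 0.47% and 0.235% with TL2766, and no nuclear subunit was. The median of the subunits was so near 0 that its sign depended on the scaling. It ran from -0.048 to 0.043 in the TL2937 comparison and from -0.016 to 0.032 in the TL2766 comparison over the settings tried.

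**Figure D1:**
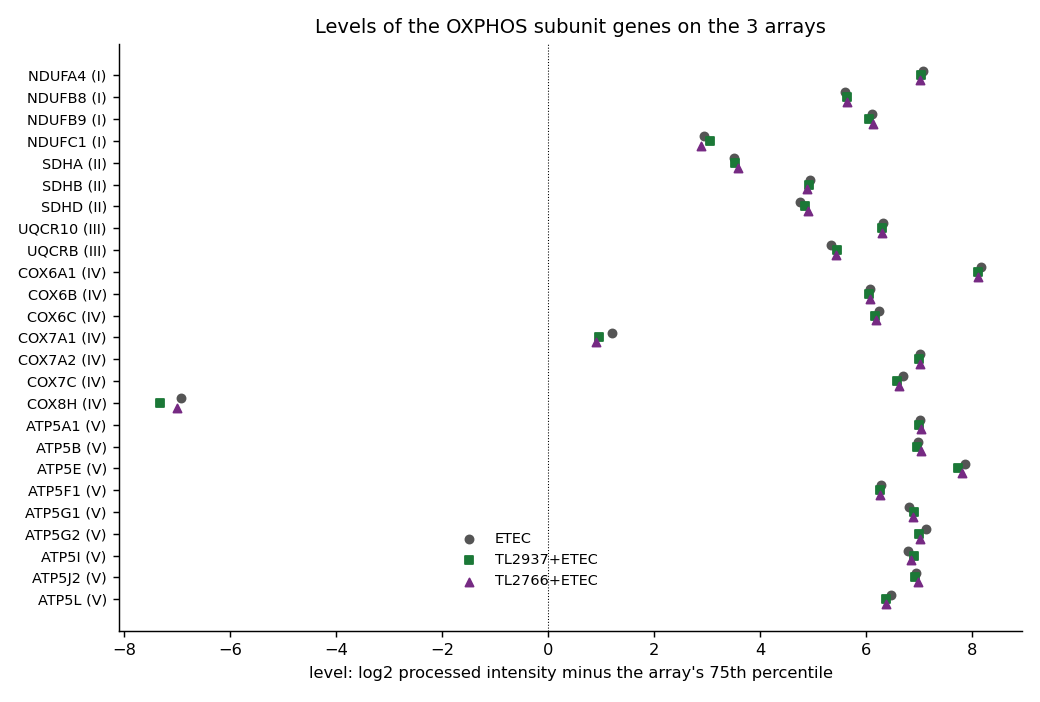
Each row is a reported subunit gene with its complex in brackets, and the horizontal axis is its level on the ETEC (circle), TL2937+ETEC (square) and TL2766+ETEC (triangle) array, from 1 brightest probe. The 3 symbols nearly coincide in most rows, COX7A1 is further right on the ETEC array, and COX8H was below background; rows of different genes are measured by different probes and are not to be compared with each other.

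In complex I, which takes electrons from NADH, 5 genes were on the array and all 5 were within 1.2-fold in each comparison. NDUFA4, long counted as a complex I subunit and since placed in complex IV, had levels of 7.07 in ETEC, 7.02 in TL2937+ETEC and 7.01 in TL2766+ETEC. Its differences of -0.052 and -0.067 were smaller than the typical spread between spots. NDUFC1, a small accessory subunit, had levels of 2.94, 3.05 and 2.88. It was highest with TL2937, its difference from TL2766+ETEC of 0.17 being the highest of any nuclear subunit, but its other probe gave -0.089 there. NDUFB8 and NDUFB9, accessory subunits of the membrane arm, differed from ETEC by -0.059 to 0.026 on either lactobacillus array. With NDUFA4 counted in it by name, the complex had medians of -0.052 with TL2937 and 0.015 with TL2766. The first of these medians is the value of NDUFA4 itself.

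Complex II, which oxidises succinate and is also an enzyme of the tricarboxylic acid cycle, was represented by SDHA, SDHB and SDHD. SDHA, the flavoprotein that holds the active site, had levels of 3.50 in ETEC, 3.52 in TL2937+ETEC and 3.59 in TL2766+ETEC. SDHD, a membrane anchor, had levels of 4.75, 4.84 and 4.90, and its differences from ETEC were 0.090 and 0.14. The second of these was the highest of any nuclear subunit in the TL2766 comparison and corresponds to 1.10-fold. The 7 probes of SDHD averaged -0.034 ± 0.065 (SD over probes) with TL2937 and 0.077 ± 0.081 with TL2766, so the difference with TL2937 had another sign over all probes than at the brightest one. SDHB, the iron-sulphur subunit, had levels of 4.94, 4.92 and 4.88. Its brightest probe gave -0.020 and -0.054, whereas its 8 probes averaged 0.094 ± 0.063 and 0.092 ± 0.083. None of the 3 genes passed 1.2-fold, and the medians were 0.019 and 0.084.

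Complex III, the cytochrome c reductase, had only the small subunits UQCR10 and UQCRB among the named genes. UQCR10 had a single probe with levels of 6.32 in ETEC, 6.29 in TL2937+ETEC and 6.29 in TL2766+ETEC, and it was flat. UQCRB, which lies close to the ubiquinone site, had levels of 5.33, 5.45 and 5.42. It was lowest in ETEC, and its difference of 0.12 with TL2937 (1.09-fold) was the highest of any nuclear subunit in that comparison, with 0.019 to 0.12 over its 7 probes. With TL2766 it differed by 0.095, and its probes ran from -0.030 to 0.11. CYC1, the cytochrome subunit, and the larger core proteins were not analysed here.

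Complex IV, the cytochrome c oxidase, held the only nuclear subunit that was called. COX7A1 is the isoform of subunit VIIa typical of heart and skeletal muscle, and COX7A2 is the isoform of most other tissues. COX7A1 had levels of 1.19 in ETEC, 0.96 in TL2937+ETEC and 0.90 in TL2766+ETEC. It was highest in ETEC and close together on the lactobacillus arrays, which differed by 0.057. The difference was -0.24 (1.18-fold) with TL2937, just short of the threshold, and -0.30 (1.23-fold) with TL2766. A second COX7A1 probe gave -0.28 and -0.35. The probes share a run of 31 bases, so they are not separate evidence, while no run longer than 7 bases is shared between the COX7A1 and COX7A2 probes. COX7A2 had levels of 7.01, 7.0 and 7.01, with differences of -0.005 and 0.0017. The start of the second COX7A1 probe, 30 of its 60 bases as the array files give them, is shown because COX7A1 is the nuclear subunit that was called:
COX7A1: tccttccctcacaagaagtgagaccaagaa

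The call for COX7A1 depended little on the scaling. Its difference ran from -0.31 to -0.19 with TL2937 and from -0.36 to -0.28 with TL2766 over the settings tried, and it passed 1.2-fold in the TL2766 comparison in each of them. Among named genes with a mean level from 0 to 2, the range that holds COX7A1, 8.62% and 7.20% were called lower in the TL2937 and TL2766 comparisons. Differences of that size were thus not particular to COX7A1 among genes of its brightness. DES, desmin, another gene of muscle, had levels of 2.40, 2.21 and 2.18, and ACTA2, smooth muscle actin, had 6.80, 6.44 and 6.62. All 6 fibroblast and smooth muscle markers on the array were detected, with log2 summed levels of 6.88, 6.53 and 6.69, of which ACTA2 made up nearly all. The list was not uniform. PDGFRB went the other way, by 0.020 and 0.13, and DCN differed by only -0.087 and -0.051. COL1A2 differed by -0.38 and -0.55 and THY1 by -0.18 and -0.095. The part of these markers in the COX7A1 value was not tested.

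The other subunits of complex IV were within 1.2-fold in each comparison. COX6A1, the liver-type isoform of subunit VIa, had levels of 8.17 in ETEC, 8.10 in TL2937+ETEC and 8.11 in TL2766+ETEC. COX6B, a small subunit that faces the intermembrane space, had levels of 6.06, 6.04 and 6.07, and COX7C had 6.70, 6.58 and 6.62. COX7C was highest in ETEC, by 0.13 over TL2937+ETEC. COX6C differed by -0.072 and -0.063. All 6 measured subunits counted in complex IV, without NDUFA4, had a difference below 0 with TL2937, with a median of -0.071. All named genes had a median of -0.043 there. Those with a mean level of at least 4 had -0.070 and those at 6 or more had -0.10. A median of that size was thus not particular to the complex among bright genes. Cyclic loess scaling brought the complex median to 0.0066. With TL2766, 4 of the 6 were below 0 and the median was -0.062, beside -0.012 and -0.040 for named genes of these brightness ranges. The complex median ran up to 0.0049 under other settings. For COX8H neither of 2 probes was well above background on any array, and no difference is given.

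**Figure D2:**
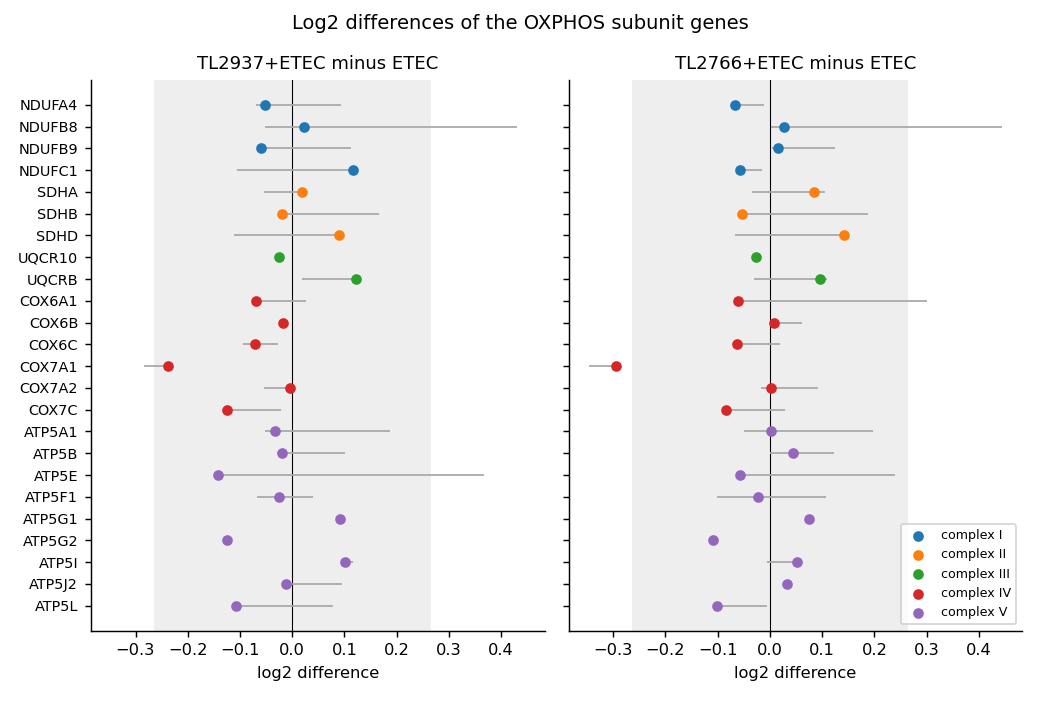
Each point is the log2 difference of a reported subunit gene at its brightest probe, coloured by complex, for TL2937+ETEC minus ETEC (left) and TL2766+ETEC minus ETEC (right). Grey lines span the gene's probes that were detected on all 3 arrays and the grey band is 1.2-fold; COX7A1 is the only point outside the band, at -0.30 on the right.

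Complex V, the ATP synthase, had 9 genes, and all 9 were within 1.2-fold in each comparison. ATP5A1 and ATP5B encode the alpha and beta subunits of the catalytic head. ATP5A1 had levels of 7.02 in ETEC, 6.99 in TL2937+ETEC and 7.03 in TL2766+ETEC, and ATP5B had 6.98, 6.96 and 7.03. Neither differed from ETEC by more than 0.045. ATP5E, the epsilon subunit of the central stalk, had levels of 7.86, 7.72 and 7.81, and its difference of -0.14 with TL2937 was the lowest of the complex in that comparison. ATP5F1, of the peripheral stalk, had levels of 6.29, 6.26 and 6.26 and was flat.

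ATP5G1 and ATP5G2 encode the same mature subunit c, of the proton-driven ring, from separate genes. ATP5G1 had levels of 6.80 in ETEC, 6.89 in TL2937+ETEC and 6.88 in TL2766+ETEC, with differences of 0.092 and 0.075. ATP5G2 had levels of 7.12, 7.0 and 7.02, with differences of -0.12 and -0.11. The genes thus lay on opposite sides of 0 against the same ETEC array, each by 1 probe and each by an amount near the spread between spots. Their probes share no run longer than 5 bases. ATP5I and ATP5L, small subunits of the membrane part, had differences of 0.10 and -0.11 with TL2937 and of 0.052 and -0.10 with TL2766. ATP5J2, of the same part, differed by -0.011 and 0.033. The medians of the complex were -0.025 and 0.0023.

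The direct comparison of the lactobacillus arrays does not use the ETEC array. Of the 25 subunits, 0 were higher and 0 lower with TL2937 than with TL2766, where 4.31% and 7.78% of all named genes were called higher and lower. Among named genes with a mean level of at least 4 the shares were 0.14% and 5.34%, and at 2-fold 0.0583% and 0.262% of all named genes were higher and lower. The median was -0.0082, with a standard deviation of 0.066, beside -0.045 and 0.19 over all named genes. The medians by complex were -0.0036 for complex I, -0.052 for complex II, 0.013 for complex III, -0.0089 for complex IV and -0.016 for complex V.

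Of the 116 probes, 112 were well above background on all 3 arrays, and 50 of these had a difference above 0 with TL2937 and 66 with TL2766. In the TL2937 comparison 2 were at least 1.2-fold higher and 1 lower, and in the TL2766 comparison 2 and 2. The lower probes were those of COX7A1. The higher ones were a probe of NDUFB8 (0.43 with TL2937 and 0.44 with TL2766), which the array assigns to another transcript record than the gene's other detected probes, a probe of ATP5E (0.37 and 0.24) and a probe of COX6A1 (0.026 and 0.30), likewise on a record of its own. These genes were singled out after their values were seen. Their brightest probes gave 0.023 and 0.026, -0.14 and -0.057, and -0.070 and -0.061, so the probes of 1 gene disagreed. The higher probes were dim, at -3.70, -0.24 and -2.77 in ETEC, beside 5.60, 7.86 and 8.17 for the brightest ones. Among named genes with a mean level from -4 to 0, 11.3% were called higher with TL2937 and 12.7% with TL2766. A further 7 genes, whose array names the rule does not match, were identified by accession, namely NDUFA9, NDUFB6 and NDUFS6 of complex I, COX5B of complex IV and ATP5D, ATP5O and ATP5S, whose name belongs to a coupling factor of complex V. Their differences from ETEC ran from -0.065 to 0.12 on either lactobacillus array.

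Probes along 1 transcript did not all give the same difference. ATP5A1 had 14 probes, and the 7 nearest the start of the transcript averaged 0.11 with TL2937 and 0.11 with TL2766, whereas the 7 nearest its end averaged -0.018 and -0.014. The average over all 14 was 0.047 ± 0.079 and 0.050 ± 0.085 (SD over probes). Brightness changed with position. In ETEC the probes that start up to base 1245 had levels of 1.66 to 5.17, and those from base 1554 on had 5.87 to 7.02. Position and brightness thus cannot be told apart in this gene. Its probes at base 771 and base 1554 of the target are shown as an upstream and a downstream example:
ATP5A1 (771): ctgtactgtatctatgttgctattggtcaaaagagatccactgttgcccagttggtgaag
ATP5A1 (1554): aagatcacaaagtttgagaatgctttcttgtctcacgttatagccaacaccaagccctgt

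Over the 6 subunit transcripts with at least 4 detected probes spread over at least 200 bases, the upstream probes exceeded the downstream probes by a median of 0.040 with TL2937 and 0.039 with TL2766, and the value was above 0 in 5 and 4 of them. Over 553 other transcripts the medians were 0.016 and 0.022, and 59.7% and 60.9% were above 0. In the direct comparison the medians were 0.012 for the subunits and -0.0020 for the other transcripts. The gap between upstream and downstream probes was thus present against the ETEC array beyond the subunits too. Upstream and downstream probes were not matched for brightness, so the gap cannot be assigned to position alone. Its part in the differences of single genes was not tested, and whether the quality or labelling of the RNA differed between the arrays was not tested either.

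**Figure D3:**
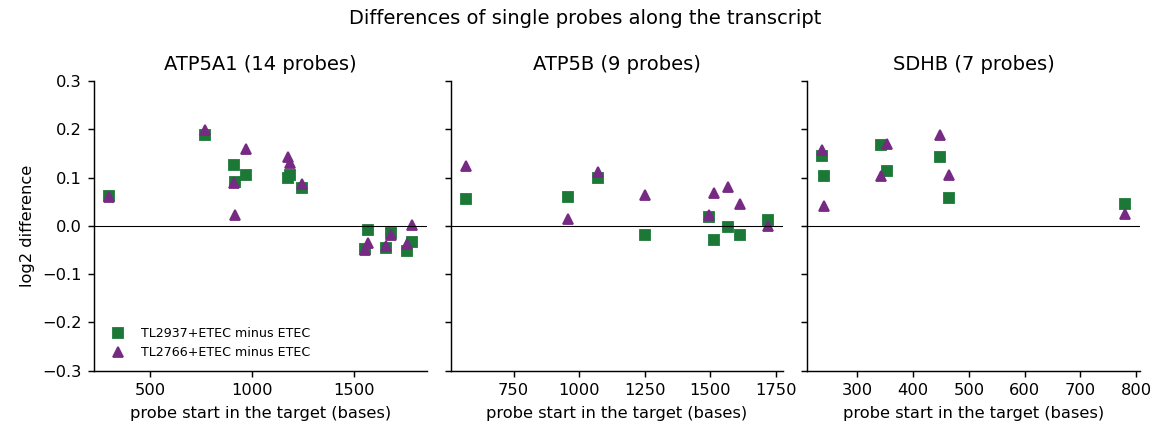
Each point is the log2 difference of 1 probe against its start position in the target transcript, for ATP5A1 (14 probes), ATP5B (9) and SDHB (the 7 probes on its reference transcript), with TL2937+ETEC minus ETEC as squares and TL2766+ETEC minus ETEC as triangles. In ATP5A1 the 8 probes that start up to base 1245 lie above 0 and the 6 that start from base 1554 on lie between -0.052 and 0.0023. These 6 are also the brighter probes of the gene.

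Some of the subunits encoded in mitochondrial DNA, the partners of the nuclear subunits in complexes I, III, IV and V, differed between the arrays. All 13 were on the array with 120 probes, and all were well above background. With TL2937, 6 of 13 were called higher than in ETEC, 1 lower and 6 neither, where 7.41% of all named genes were higher and 13% lower. With TL2766, 5 were higher, 1 lower and 7 neither, where 8.43% were higher and 8.99% lower. The median was 0.10 and 0.12. No gene was higher and 1 was lower in the direct comparison, where 4.31% and 7.78% of all named genes were higher and lower. The nuclear subunits, measured on the same arrays and scale, gave 0 higher in each. Most of them have a mean level of at least 4, and among such named genes 3.37%, 4.92% and 0.14% were called higher. A count of 0 of 25 is near these shares.

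The 5 genes that were called higher with both lactobacilli, and the gene that was lower, stand at places 8 to 13 of the mitochondrial gene order in the RefSeq table of assembly Sscrofa11.1. This grouping was made after the values were seen. ND3, a complex I subunit, had levels of 6.17 in ETEC, 6.68 in TL2937+ETEC and 6.59 in TL2766+ETEC, with differences of 0.51 and 0.42. ND4L had 5.62, 6.23 and 6.08, with differences of 0.61 and 0.46, and ND4 had 7.25, 7.67 and 7.55, with 0.43 and 0.31. ND5 had 6.38, 6.74 and 6.67, with 0.36 and 0.29. CYTB, the cytochrome b of complex III, had levels of 7.38, 7.94 and 7.76 and differences of 0.56 (1.47-fold) and 0.38 (1.30-fold). All 5 were lowest in ETEC and highest with TL2937. Over its 21 probes CYTB averaged 0.63 ± 0.11 and 0.43 ± 0.094 (SD over probes), and ND4 over 10 probes averaged 0.56 ± 0.082 and 0.42 ± 0.074. ATP8, of complex V, stands apart from them at place 5 and was called with TL2937 and not with TL2766, with levels of 5.89, 6.20 and 6.01 and differences of 0.31 and 0.12 from 1 probe. The difference between its values, 0.19, was within 1.2-fold.

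The genes at the other end of the order were nearly level at their brightest probe. ND1 had levels of 8.24 in ETEC, 8.32 in TL2937+ETEC and 8.30 in TL2766+ETEC, and its 20 probes averaged 0.093 ± 0.031 and 0.064 ± 0.036. ND2 differed by 0.056 and 0.013, and COX1, the catalytic subunit of complex IV, by 0.097 and 0.13. COX2 differed by 0.0067 and 0.016, ATP6 by 0.10 and 0.087, and COX3 by 0.015 and 0.020. For COX1, COX2, COX3 and ATP6 the choice of probe mattered. With TL2937, COX3 probes gave 0.40 at an ETEC level of 5.85, 0.38 at 8.13, 0.12 at 9.21 and 0.015 at 9.76. COX1 probes gave 0.48 at 6.58 and 0.097 at 9.74, but also 0.063 at 8.35. The genes called higher with both lactobacilli were read at ETEC levels of 5.62 to 7.38. The part of brightness in the contrast between the ends of the order was not tested. The 9 probes of ATP6 averaged 0.23 ± 0.066 and 0.17 ± 0.058 (SD over probes), and the 4 of COX2 averaged 0.20 ± 0.13 and 0.12 ± 0.078. The 13 probes of COX3 ran from -0.023 to 0.42 with TL2937 and from 0.0094 to 0.30 with TL2766. The 24 probes of COX1 ran from -0.077 to 0.48 and from -0.061 to 0.37.

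ND6, a complex I subunit, was the mitochondrial gene that was lower. Its level was -0.28 in ETEC, -1.28 in TL2937+ETEC and -0.83 in TL2766+ETEC. The difference was -0.998 (1.997-fold) with TL2937 and -0.55 (1.46-fold) with TL2766, and -0.45 (1.36-fold) in the direct comparison, which rests on arrays other than ETEC. It is known as the only protein gene transcribed from the opposite strand of mitochondrial DNA, which leaves its messenger rich in G. The value rests on 1 probe. Over the settings tried it ran from -1.02 to -0.82 with TL2937 and from -0.56 to -0.48 with TL2766. The probes of ND6, of its higher neighbours ND4 and CYTB, and of the level ND1 are shown with G in capitals:
ND6: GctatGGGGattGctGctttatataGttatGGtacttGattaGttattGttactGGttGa
ND4: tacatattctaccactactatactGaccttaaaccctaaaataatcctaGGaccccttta
CYTB: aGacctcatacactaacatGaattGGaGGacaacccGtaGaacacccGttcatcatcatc
ND1: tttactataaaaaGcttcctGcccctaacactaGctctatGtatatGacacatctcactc

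The ND6 probe has 16 G among its 60 bases, and the other 119 mitochondrial probes have 3 to 16 with a median of 7. Of the 120 probes, 114 had a difference above 0 with TL2937 and 112 with TL2766, with 54 and 46 at least 1.2-fold higher and 1 and 1, the ND6 probe, lower. In the direct comparison 104 were above 0, 1 was at least 1.2-fold higher and 1 lower. CYTB differed by 0.18 there and ND4 by 0.12, both higher with TL2937. These differences exceed the median spread between spots of 0.087, which reached 0.52 for a single probe. They do not rest on the ETEC array, but they are within 1.2-fold. Upstream probes exceeded downstream ones in 8 of 8 mitochondrial transcripts with enough probes, by medians of 0.13 and 0.087, and by 0.32 and 0.20 in COX3. Position went with brightness here too, the ETEC level of COX3 being 5.85 at base 82 and 9.50 at base 724. The downstream probes of CYTB averaged 0.53 and 0.35, and those of ND4 0.52 and 0.38.

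**Figure D4:**
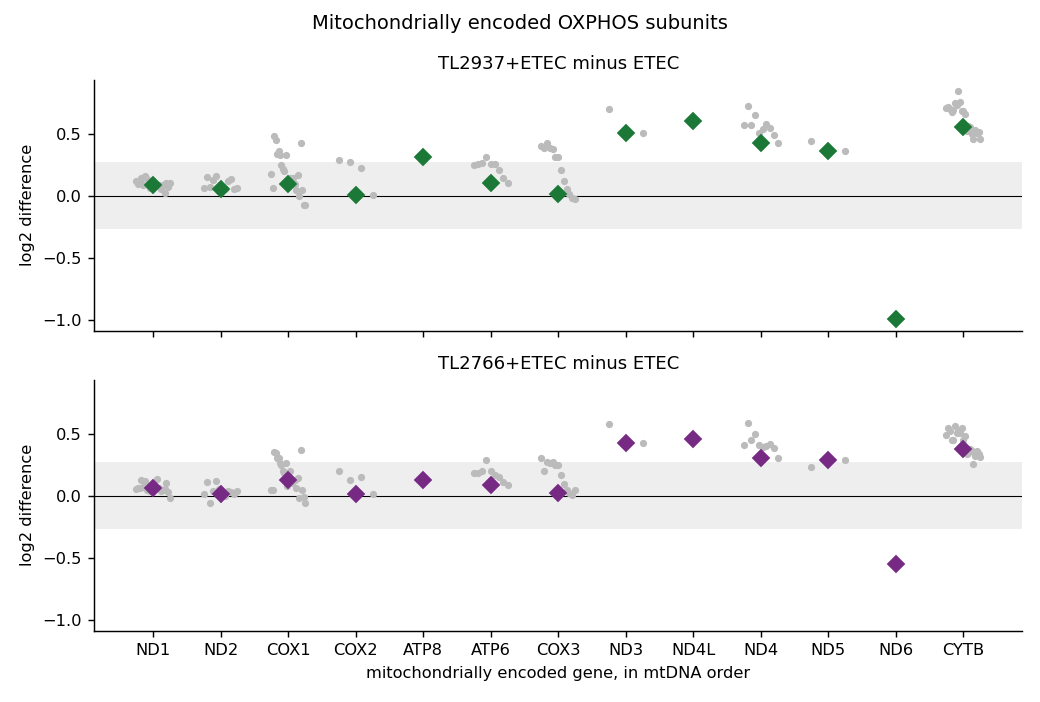
Diamonds are the log2 difference of each mitochondrially encoded gene at its brightest probe for TL2937+ETEC minus ETEC (upper panel) and TL2766+ETEC minus ETEC (lower panel), with genes in their order on mitochondrial DNA. Grey points are single probes, ordered within each gene by start position and evenly spaced, and the grey band is 1.2-fold; ND3, ND4L, ND4, ND5 and CYTB lie above the band and ND6 below it in both panels.

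Lists of genes that build, feed or express the complexes showed few calls. Over all named genes 7.41% were called higher and 13% lower with TL2937, and 8.43% and 8.99% with TL2766. The lists in this paragraph hold 4 to 10 measured genes each, too few to set their counts apart from these shares. The 4 assembly factors on the array, of 53 listed, were within 1.2-fold, among them COX17, a copper chaperone of complex IV (6.17, 6.16 and 6.07), and TMEM70, which assembles complex V (3.58, 3.75 and 3.80). Of 24 electron, nucleotide and phosphate carriers and related genes, 12 were on the array and the 10 that were measured were within 1.2-fold. Cytochrome c, CYCS, which links complexes III and IV, had levels of 5.10, 5.17 and 5.22. The ADP/ATP carrier SLC25A6 had 8.79, 8.65 and 8.78. The 6 regulators on the array of 23 listed were within 1.2-fold. TFAM, which packages mitochondrial DNA and activates its transcription, had 2.30, 2.34 and 2.35. TFB1M had 2.0, 2.01 and 2.01, and the mitochondrial polymerase POLG had 1.54, 1.56 and 1.55. The medians of the regulators were 0.014 and 0.037. SLIRP, which stabilises mitochondrial messengers, had 4.66, 4.74 and 4.69. The 7 mitochondrial ribosomal proteins and the 4 import and chaperone genes on the array were within 1.2-fold as well.

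The tricarboxylic acid cycle and pyruvate dehydrogenase list, which supplies electrons to complexes I and II, had 19 of 25 genes on the array. With TL2937, 2 of 19 were called higher and 3 lower, and with TL2766 1 was higher and 0 lower, which is near the share of all named genes. PDK4, a kinase that switches pyruvate dehydrogenase off, had levels of 0.49 in ETEC, 0.99 in TL2937+ETEC and 0.78 in TL2766+ETEC. It was lowest in ETEC, with differences of 0.50 and 0.29. PDK1, of the same family, went the other way, at 1.58, 1.17 and 1.39. FH, fumarase, had differences of -0.48 and -0.23 near the lower end of detection, and PC, pyruvate carboxylase, had -0.29 and -0.14. Citrate synthase, CS, had levels of 5.38, 5.33 and 5.49.

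**Figure D5:**
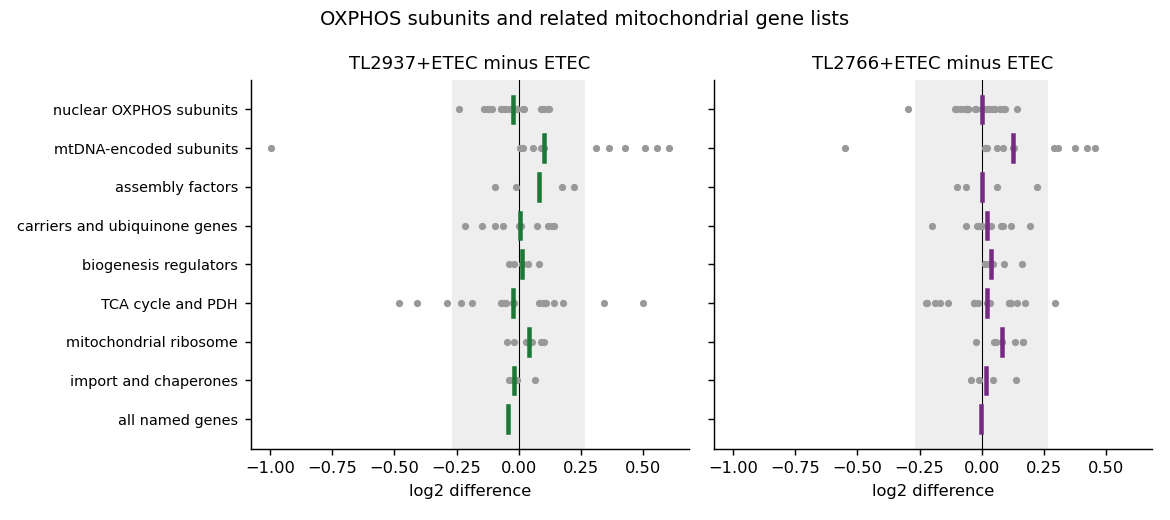
Grey points are the log2 differences of the reported genes of each list that were well above background on all 3 arrays, coloured bars are the list medians, and the grey band is 1.2-fold, for TL2937+ETEC minus ETEC (left) and TL2766+ETEC minus ETEC (right). For all named genes only the median is drawn (-0.043 and -0.0046); the nuclear subunits cluster near 0 while mitochondrially encoded genes spread from -0.998 to 0.61 on the left.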

How the data were processed

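RNA of the 3 cultures (1 array each, 200 ng per labelling, per the labels' protocols) was read on 1-colour Agilent porcine arrays on a single slide, so the place on the slide, the culture and the treatment cannot be told apart. Per the file headers, Agilent Feature Extraction 10.7.3.1 made the deposited processed intensity by subtracting background and detrending each array, with no normalization between arrays. The authors' value table holds the same intensity, rounded, within 0.496%.

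Here the log2 of the deposited intensity was taken and the array's 75th percentile subtracted. Control and outlier spots (8, 9 and 4) were left out, no spot was saturated, and spots of a probe were averaged. Gene names are those of the array, and accessions were matched to a RefSeq table of assembly Sscrofa11.1. Values are printed for the brightest and dimmest members of each complex, those that differed most, those called or undetected, and the largest and brightest of each list. Values of 1 member are not reported here, though counts and medians include it. The members and lists were chosen with earlier results of these data known. Settings varied were normexp correction (offset 50), quantile, median, detected-probe and cyclic loess scaling, the value table, the filters, the probe of a gene and the threshold. The steps were tested on simulated data. The software was R 4.3.3 with limma 3.58.1, and Python 3.11.15 with numpy 2.4.6, pandas 2.3.3 and matplotlib 3.10.9.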

Additional observations from a re-analysis of the deposited data

How the results depend on the processing

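Of 447 alternative values of the counts and medians, 435 stayed within the spread or within 1.5 times the count, and 12 moved. No called value changed sign, but medians near 0 did, in 50 of 285 values, all within 0.056 of 0 after the change. COX7A1, called lower in the TL2766 comparison, was not called at 1.5-fold or 2-fold, where 0 members were lower. The count of members lower with TL2937 was 1 with the normexp correction (COX7A1), 1 with no background filter (COX8H, which was not detected) and 1 with the probe of lowest start (COX7A1). In the direct comparison it was 1 with no filter (COX8H) and 1 with the probe of highest start (COX6A1). The count of members higher with TL2937 was 1 with the probe of highest start (NDUFB8) and 1 with that of lowest start (ATP5E), and with TL2766 it was 2 with the probe of highest start (NDUFB8 and COX6A1). These settings on the start position, and those for the counts of mitochondrially encoded genes, were chosen after seeing the data. The median of the mitochondrially encoded subunits with TL2937 was 0.23 with quantile normalization and 0.23 with the mean of all probes. Their count of higher genes ran from 6 to 8 with TL2937 and from 4 to 5 with TL2766, and 1 gene was lower in each setting run. Leaving out names that encode no subunit gave no value, since the array-named members hold none. No paired analysis was possible because each group has 1 sample. Without a second culture per group, differences of the size seen for the nuclear subunits cannot be told apart from variation between cultures.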
